A study of Mus musculus with 8 samples.

Results

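The data described here are 4 of the 8 RNA-seq libraries of a study of CTLA-4 blockade in mice carrying an intracranial glioma: the 2 libraries of phagocytes from wild-type (WT) hosts given anti-CTLA-4 antibody and the 2 from WT hosts given isotype control IgG, chosen by their titles. All 4 came from C57BL/6 mice injected in the brain with GL261 glioma cells, a mouse glioma line that here carried mCherry and EGFP. On day 23 the brains were dissociated, and live cells positive for both CD45.2, the leukocyte surface protein, and mCherry, the fluorescent protein of the tumour cells, were sorted as phagocytes. The other 4 libraries were prepared the same way from muMT hosts, which lack B cells, under the same 2 antibodies, and serve here only to test where the effect in WT hosts differed. The labels leave unstated whether a group's 2 libraries were made from different animals or from pooled cells, and they name neither the antibody clone nor its schedule. The p-values below therefore rest on the spread between libraries of a group, estimated over all 8, which may be technical. The comparison asks which transcripts of tumour-laden phagocytes were higher or lower under CTLA-4 blockade in hosts with B cells, across all genes rather than among the strongest few.

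CTLA-4 is an inhibitory receptor of T cells, and antibodies against it release T cells from that restraint. Macrophages and microglia take up dying tumour cells, carry the ingested protein in their lysosomes, and change their transcripts with the cytokines and danger signals around them. Signals through Toll-like receptors and interferon gamma receptors act on NF-kB and HIF-1 alpha and raise inflammatory mediators and glycolytic genes, whereas interleukin 4, interleukin 10 and glucocorticoids support mannose receptor, scavenger receptor and tissue-repair genes.

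The reverse-strand counts summed to between 24784639 and 27900880 reads in genes per WT library, and the common coefficient of variation between libraries of a group was 4.11%. All 8 phagocyte markers were read in every WT library. Their summed level was 5703 and 5698 unscaled CPM (relative to all reads in genes, without TMM) in the isotype libraries and 5507 and 5465 in the anti-CTLA-4 libraries. The 7 monocyte markers rose in sum from 5326 and 5369 to 9814 and 10080 unscaled CPM. Most of that sum was Lyz2, with 136274 of 148467 and 136816 of 149808 reads in the isotype libraries. In the anti-CTLA-4 libraries it held 224950 of 243245 and 252156 of 272329 reads. Of the 7 markers 5 were called higher, among them Lyz2 at 0.93 ± 0.038 (adjusted p = 2.05e-18). Ccr2 read -0.05 (adjusted p = 0.559) and Vcan -0.1 (adjusted p = 0.521). The 10 microglia markers summed to 2241 and 2257 against 1940 and 1989 unscaled CPM, with 6 of 10 called lower and Olfml3 called higher. Endothelial markers summed to 281 and 288 against 344 and 337 unscaled CPM, fibroblast and mural markers to 282 and 274 against 192 and 188, NK cell markers to 64.4 and 65.5 against 77.6 and 83.3, T cell markers to 26.8 and 28.2 against 37.4 and 35.7, mast cell and basophil markers to 26.3 and 26.3 against 38.3 and 39.4, and B cell markers to between 9.51 and 10.4 in all 4 libraries. In a bulk sample fewer cells of a type cannot be told apart from less RNA per cell, and the part of any such cell type in the results below was not tested.

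Some transcripts of tissues outside the sort were present in 1 WT group alone. Gh and Prl, the pituitary hormones growth hormone and prolactin, were read 367 and 374 times and 270 and 229 times in the isotype libraries, and 0 times in both anti-CTLA-4 libraries. Against a floor of 3 reads over the group, Gh was at least 229-fold lower and Prl at least 154-fold lower (Prl was singled out after its values were seen). In muMT hosts the order was the other way round, with Gh at 1 and 0 reads under isotype and 64 and 35 under anti-CTLA-4, and Prl at 0 and 0 against 64 and 71. The part of tissue carried along with the sorted cells in other genes was not tested. Several neutrophil transcripts were also lower in WT with anti-CTLA-4. S100a9, a subunit of calprotectin, moved from 8.48 and 8.28 to 1.00 and 1.87 CPM, a log2 fold change of -2.52 ± 0.19 (adjusted p = 4.73e-12). S100a8, Ltf, Ngp, Retnlg and Camp were also called at least 2-fold lower. Ngp, Retnlg and Camp had few reads, 16 to 45 per isotype library and 1 to 5 per anti-CTLA-4 library. Mmp8, on the same list, was not called, with 18.45 and 21.29 CPM in the isotype and 17.14 and 18.55 CPM in the anti-CTLA-4 libraries (adjusted p = 0.2). The granulocyte receptor Csf3r, which macrophages also express at some level, read from 108 and 108 to 119 and 116 CPM (adjusted p = 0.0908), and the 10 neutrophil markers summed to 150.3 and 154 against 141 and 142 unscaled CPM. Reads outside any gene took 28.4% and 29.5% of uniquely mapped reads in the isotype libraries and 33.3% and 33.0% in the anti-CTLA-4 libraries.

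A gene was called where edgeR's quasi-likelihood test gave a Benjamini-Hochberg adjusted p under 0.05 over all 16608 genes tested. With anti-CTLA-4, 2435 genes were higher (14.7% of those tested) and 2634 were lower (15.9%), or 30.5% in either direction. Most of these changes were small. Of the genes called higher, 22.2% changed by under 1.2-fold and 37.8% by 1.2 to 1.5-fold, and of those called lower 27.6% and 43.1%. Changes of at least 2-fold were called for 444 genes higher (2.67%) and 374 lower (2.25%). The median log2 fold change over all tested genes was -0.0096, so the lists below are read against a median near 0. With glmTreat, edgeR's test for a change beyond 1.2-fold, 1096 genes were called higher and 888 lower. Passing a minimum of 1.2-fold below refers to that test, which a gene with an estimate beyond 1.2-fold can fail.

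**Figure D1:**
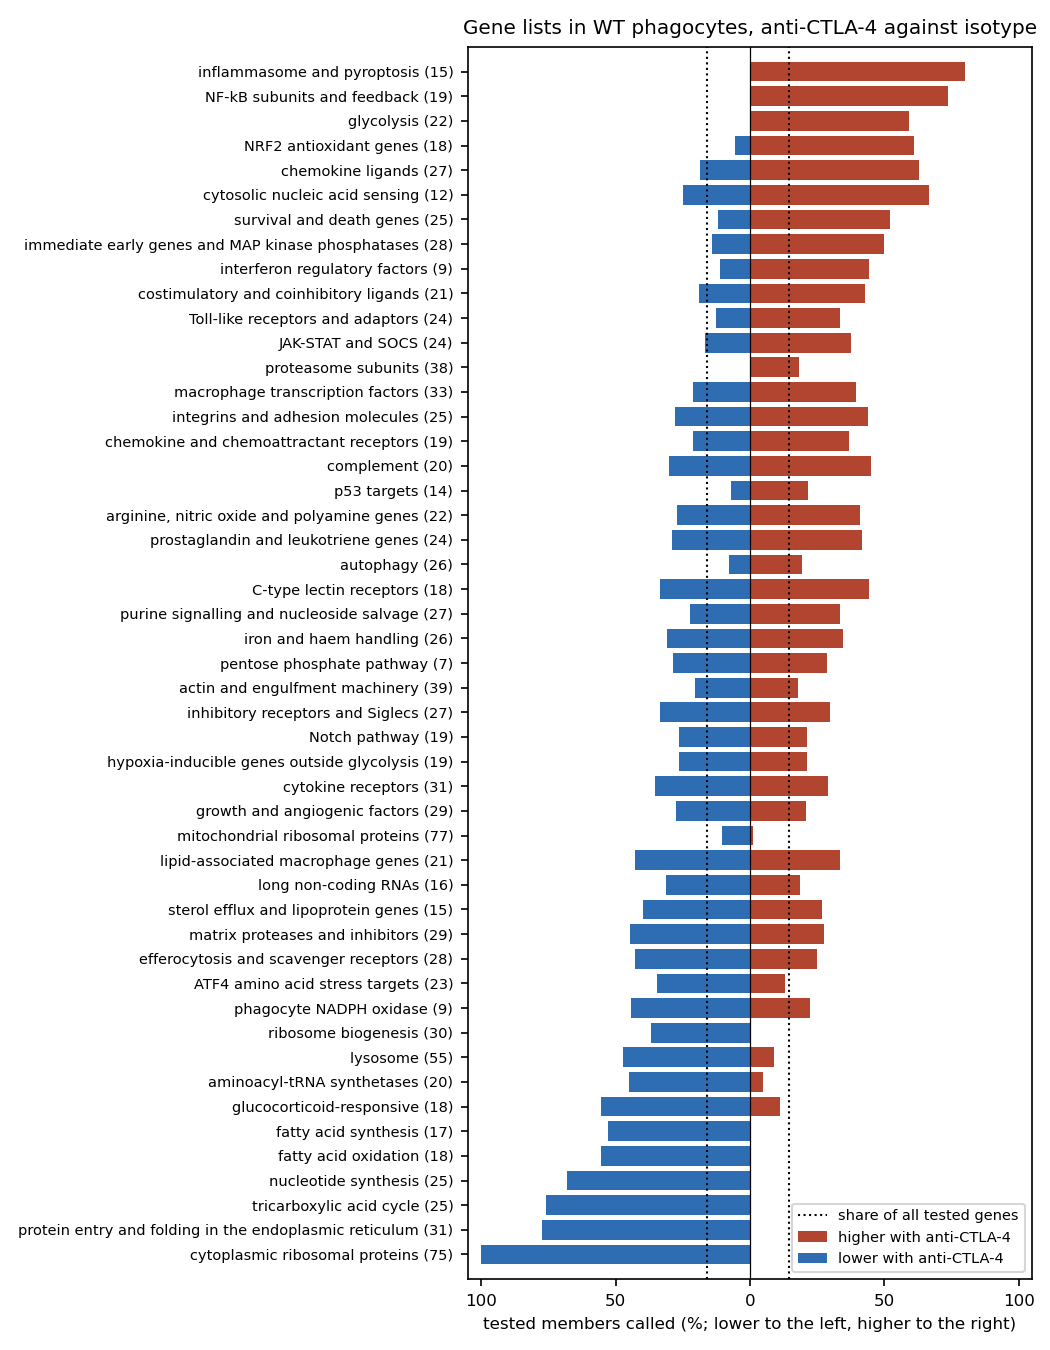
Share of the tested members of each of 49 gene lists that were called higher (bars to the right, %) or lower (bars to the left, %) with anti-CTLA-4 in WT phagocytes; the number tested is in parentheses and the dotted lines mark the shares over all genes, 14.7% higher and 15.9% lower. Inflammasome, NF-kB, glycolysis and NRF2 lists sit at the top with few or no lower members, and ribosomal protein, endoplasmic reticulum, tricarboxylic acid cycle and nucleotide synthesis lists at the bottom with no higher members.

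Among genes that rose at least 2-fold, those next in rank after the strongest 12 included receptors, inflammatory mediators, interferon-inducible proteins, lipid enzymes and inhibitors of cell death. Expression is given as CPM scaled by TMM, 1 value per library, and changes as log2 fold change ± SE. Fpr2, a formyl peptide receptor for bacterial and mitochondrial peptides, read 8.41 and 9.75 CPM in the isotype libraries and 51.2 and 51.8 CPM in the anti-CTLA-4 libraries, a change of 2.50 ± 0.089 (adjusted p = 5.03e-20). Clec4e encodes Mincle, a receptor for a nuclear protein released by dead cells and for mycobacterial glycolipid. It read 132 and 134 CPM in the isotype libraries and 354 and 365 CPM in the anti-CTLA-4 libraries, a change of 1.44 ± 0.05 (adjusted p = 2.54e-20). Tnf, the cytokine tumour necrosis factor, read 83.5 and 78.4 CPM in the isotype libraries and 200.2 and 195 CPM in the anti-CTLA-4 libraries, a change of 1.29 ± 0.052 (adjusted p = 1.2e-18). Each of these 3 genes had both anti-CTLA-4 libraries far above both isotype libraries and little spread within a group. The rule that named them required no overlap and ranked by p, so this is a description. Ptgs2, the inducible cyclooxygenase that makes prostaglandin H2, was abundant and read 1295 and 1409 CPM in the isotype libraries and 3405 and 3526 CPM in the anti-CTLA-4 libraries, a change of 1.36 ± 0.05 (adjusted p = 1.11e-18). Jag1, a membrane ligand of Notch receptors, read 99.1 and 100 CPM in the isotype libraries and 258 and 256 CPM in the anti-CTLA-4 libraries, a change of 1.37 ± 0.05 (adjusted p = 8.72e-20). Procr, the endothelial protein C receptor, read 22.4 and 20.1 CPM in the isotype libraries and 79.2 and 75.9 CPM in the anti-CTLA-4 libraries, a change of 1.87 ± 0.07 (adjusted p = 2.07e-19). Endothelial markers moved the same way, with 7 of 10 called higher, and their part in this gene was not tested. The inhibitors of cell death and NF-kB signalling in this set were Cflar, the caspase 8 inhibitor c-FLIP, and Tnip3, a partner of the A20 deubiquitinase. Cflar moved from 205 and 211 to 452 and 453 CPM (1.12) and Tnip3 from 22 and 23.9 to 80.5 and 75.9 CPM (1.77).

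The interferon-inducible genes of the same rank were Gbp4, a guanylate-binding protein, Ly6a, the Sca-1 surface antigen, and Slfn4, a schlafen family member. Gbp4 moved from 202 and 205 to 502 and 502 CPM, Ly6a from 224 and 226 to 512 and 489.8 CPM and Slfn4 from 132 and 138 to 328 and 345 CPM, with log2 fold changes of 1.30, 1.15 and 1.32. Lipid and surface enzymes followed. Acsl1, which activates long-chain fatty acids with coenzyme A, moved from 60.8 and 61.4 to 162 and 158 CPM (1.39 ± 0.053, adjusted p = 3.31e-19). Smpdl3b, a lipid phosphodiesterase of the membrane, moved from 19.1 and 19.2 to 64.6 and 61.9 CPM (1.72), and Bst1, the ADP-ribosyl cyclase CD157, from 30.9 and 32.8 to 89.0 and 95.9 CPM (1.54). Itgb7, the beta 7 integrin subunit, moved from 41.3 and 38.3 to 116 and 111 CPM (1.51). Capg, an actin filament capping protein, moved from 215 and 201 to 451 and 461 CPM (1.13), Plac8, itself on the monocyte marker list, from 65.2 and 61.1 to 156 and 159 CPM (1.32) and Pid1 from 34.9 and 35.2 to 102 and 98.8 CPM (1.52). Within each of these genes the lower anti-CTLA-4 library lay above the higher isotype library, which the naming rule required.

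Genes that fell at least 2-fold at the same ranks included matrix proteases, adhesion molecules and genes of lipid mediators. Mmp9, gelatinase B, read 21.1 and 21.3 CPM in the isotype libraries and 0.641 and 0.367 CPM in the anti-CTLA-4 libraries, a change of -5.40 ± 0.19 (adjusted p = 5.18e-20). Mmp13, collagenase 3, stayed abundant at 778 and 835 CPM in the isotype libraries and 372 and 383 CPM in the anti-CTLA-4 libraries, a change of -1.09 ± 0.044 (adjusted p = 1.11e-18). Vcam1, the ligand of the alpha 4 beta 1 integrin, read 1084 and 1103 CPM in the isotype libraries and 469 and 461 CPM in the anti-CTLA-4 libraries, a change of -1.23 ± 0.042 (adjusted p = 1.58e-20). Mmp9 was nearly absent from both anti-CTLA-4 libraries, while Mmp13 and Vcam1 stayed well expressed there at a lower level. Of 9 neutrophil markers tested 6 were called lower and 0 higher (5 lower with DESeq2), and the part of neutrophils in Mmp9 was not tested. Jaml, a junctional adhesion molecule of leukocytes, moved from 86.4 and 85.9 to 25.0 and 25.0 CPM (-1.78). Ocstamp, a membrane protein needed for fusion of osteoclasts and macrophages, moved from 89.1 and 81.6 to 25.4 and 26.1 CPM (-1.73). Ptgs1, the constitutive cyclooxygenase, moved opposite to Ptgs2, from 264 and 266 to 125 and 129 CPM (-1.06 ± 0.047, adjusted p = 1.31e-17). Fcgrt, the neonatal Fc receptor that recycles IgG and albumin, moved from 157 and 145 to 69.0 and 68.1 CPM (-1.14 ± 0.052, adjusted p = 2.98e-17). Tsc22d3, the glucocorticoid-induced leucine zipper GILZ, moved from 218 and 211 to 100.1 and 104 CPM (-1.07). Mgl2, a galactose-type lectin, moved from 132 and 122 to 56.0 and 59.0 CPM (-1.14).

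Pmvk, phosphomevalonate kinase of sterol synthesis, moved from 128 and 123 to 52.8 and 53.5 CPM (-1.24), and Ece1, endothelin-converting enzyme, from 194 and 189 to 94.6 and 94.0 CPM (-1.02). Hic1, a transcriptional repressor, moved from 36.4 and 33.2 to 8.69 and 7.20 CPM (-2.13), and Tlr12, a receptor for profilin of protozoa, from 102 and 95.4 to 42.7 and 43.7 CPM (-1.19). Pxdc1 moved from 81.7 and 79.1 to 34.1 and 31.6 CPM (-1.29), and Scarna10, a small RNA of Cajal bodies, from 54.1 and 50.3 to 20.9 and 17.9 CPM (-1.43). The heat shock gene Hspa1b moved from 291 and 268 to 138 and 136 CPM (-1.03) and the histone gene H2bc18 from 98.2 and 93.0 to 40.01 and 43.5 CPM (-1.20). Hspa1b and Mgl2 have near-identical relatives, and histone genes form a large family, so their counts are uncertain where reads map to more than 1 copy and are then left uncounted. Gh also ranked here, with the reads given above.

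**Figure D2:**
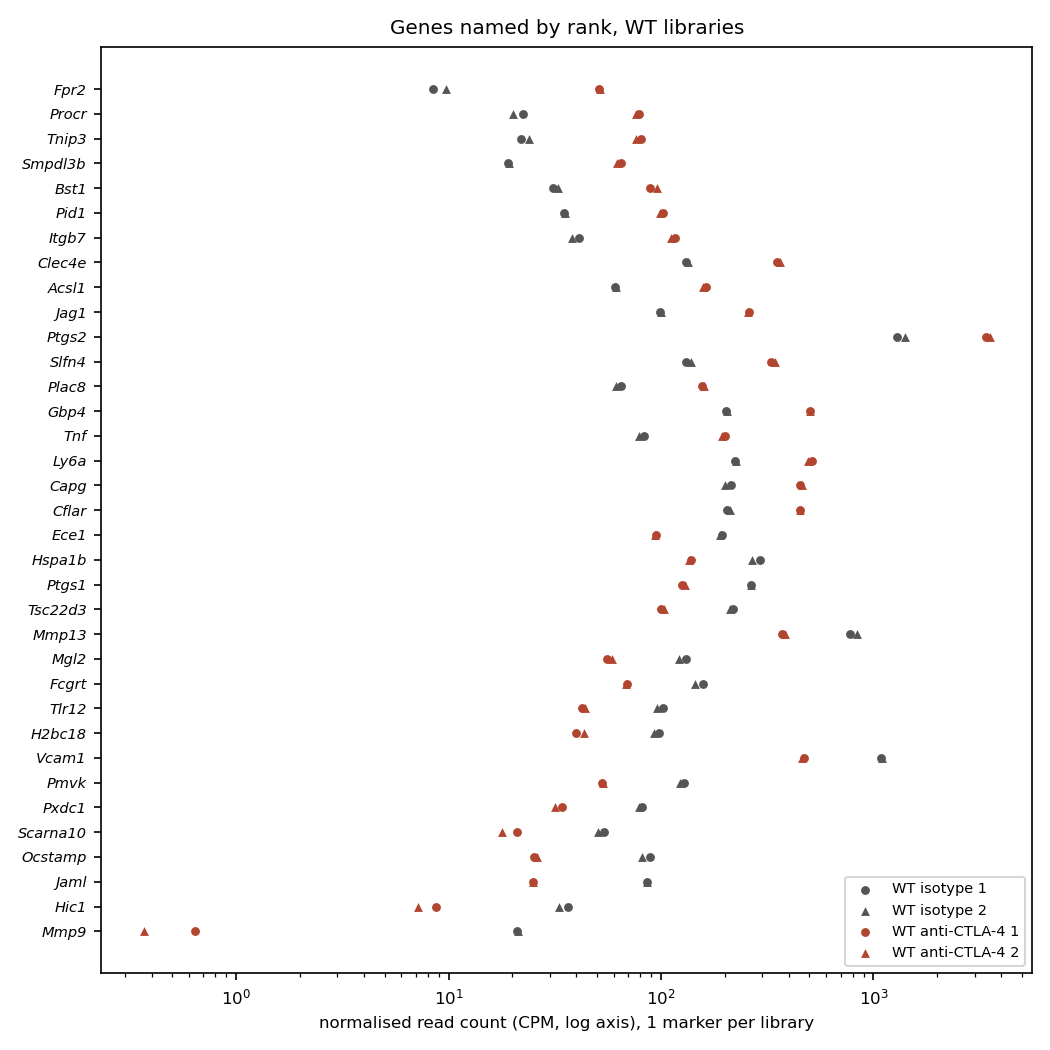
Normalised read counts (CPM, log axis) of the genes named by rank in each of the 4 WT libraries (grey, isotype; red, anti-CTLA-4; circles and triangles, the 2 libraries of a group). Gh is left out because it had no read with anti-CTLA-4. For every gene plotted the 2 groups lie apart, which the naming rule required. Mmp9 falls from 21.1 and 21.3 to 0.64 and 0.37 CPM and Fpr2 rises from 8.41 and 9.75 to 51.2 and 51.8 CPM.

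Genes of the NF-kB pathway rose together. NF-kB is a family of transcription factor dimers held in the cytoplasm by inhibitor proteins, and many of its targets encode those inhibitors. Of 19 subunits, kinases and feedback inhibitors tested, 14 were higher and 0 lower, with a median log2 fold change of 0.36. Nfkbia, the inhibitor I-kappa-B alpha, read 504 and 472 CPM in the isotype libraries and 821 and 827 CPM in the anti-CTLA-4 libraries, a change of 0.76 ± 0.043 (adjusted p = 7.23e-15). Nfkbiz, a nuclear I-kappa-B protein that is itself induced, moved from 526 and 549 to 916 and 925 CPM (0.78 ± 0.042, adjusted p = 1.39e-15). Tnip1, a partner of A20, moved from 51.6 and 50.3 to 113 and 109 CPM (1.12). The subunit p105 gene Nfkb1 changed less, from 284 and 286 to 425 and 419 CPM (0.57), as did Nfkbie, from 270.1 and 271 to 411 and 396 CPM (0.58). A minimum change of 1.2-fold left 9 of the 14 called.

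The upstream receptors were more mixed. Of 24 Toll-like receptors and adaptors, 8 were higher and 3 lower (median 0.08). Tlr2, which senses bacterial lipoproteins, moved from 702 and 695 to 1087 and 1102 CPM (0.65 ± 0.04, adjusted p = 3.51e-14), and Cd14, its co-receptor, from 1264 and 1212 to 1549 and 1570 CPM (0.33). Irak3, a kinase-like protein that restrains these receptors, moved from 14.3 and 13.3 to 31.1 and 29.5 CPM (1.13), and Cd180 moved from 73.0 and 85.0 to 132 and 128 CPM (0.71). Without WT anti-CTLA-4 library 1, 5 of the 24 were called higher, and 3 passed a minimum of 1.2-fold. C-type lectin receptors changed in both directions, with 8 of 18 higher and 6 lower. Those with the smallest p were Clec4d, the partner of Mincle (2.21), and Clec4e on the higher side and Mrc1 (-1.79) and Mgl2 on the lower side.

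Most genes of the inflammasome list rose, and nucleic acid sensing genes changed in both directions. Inflammasomes are complexes that activate caspase 1, which matures interleukin 1 beta and opens gasdermin D pores. Of 15 inflammasome and pyroptosis genes, 12 were higher and 0 lower (median 0.43), and 8 passed a minimum of 1.2-fold. Il1a, interleukin 1 alpha, moved from 666 and 693 to 1344 and 1338 CPM (0.98 ± 0.047, adjusted p = 9.65e-17). Casp1 moved from 52.0 and 59.4 to 93.6 and 95.9 CPM (0.77 ± 0.064, adjusted p = 3.42e-11). The sensor genes Nlrp3 and Mefv, which encodes pyrin, moved from 519 and 535 to 779 and 760.1 CPM (0.55) and from 152 and 150.3 to 223 and 229.5 CPM (0.58). Among 12 genes of nucleic acid sensing, 8 were higher and 3 lower (median 0.38), and with DESeq2 1 was lower, as it was without 1 of 5 libraries (WT isotype 2 or any of the 4 anti-CTLA-4 libraries). Zbp1, a sensor of left-handed nucleic acid, moved from 74.2 and 70.9 to 125 and 122 CPM (0.77 ± 0.053, adjusted p = 5.45e-13), and Rigi, the RNA helicase RIG-I, from 85.0 and 81.2 to 117 and 118 CPM (0.50). The kinases Ikbke and Tbk1, which act below these sensors, moved from 94.5 and 91.4 to 145 and 148 CPM (0.66) and from 126 and 122 to 169.7 and 174 CPM (0.47).

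Of 24 JAK-STAT and SOCS genes, 9 were higher and 4 lower (median 0.07). Jak2, a kinase bound to cytokine receptors, moved from 354 and 383 to 526 and 557 CPM (0.55 ± 0.048, adjusted p = 8.49e-11), and Usp18, which restrains the type I interferon receptor, from 34.5 and 34.1 to 63.0 and 64.2 CPM (0.89). Socs2, a suppressor induced by growth hormone and other STAT5 signals, fell, from 56.2 and 57.8 to 31.4 and 33.0 CPM (-0.82 ± 0.066, adjusted p = 1.52e-11). Of 9 interferon regulatory factors, 4 were higher and 1 lower. Irf1 moved from 312 and 296 to 560.1 and 554 CPM (0.88 ± 0.043, adjusted p = 1.74e-16) and Irf7 from 231 and 218 to 352 and 358 CPM (0.66). The count of factors called higher was 2 with reads counted on both strands, and 2 without WT isotype library 2 or either WT anti-CTLA-4 library. Among 28 immediate early genes and MAP kinase phosphatases, 14 were higher and 4 lower (median 0.13). Egr3 moved from 10.8 and 14.5 to 33.7 and 31.5 CPM (1.36), Nr4a2 from 104 and 114 to 176 and 178 CPM (0.69) and Klf6 from 781 and 781 to 1087 and 1094 CPM (0.48). Dusp6, the phosphatase that limits ERK, went down, from 284 and 278 to 196 and 206 CPM (-0.49).

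Glucocorticoid-responsive genes were called lower more often than higher. Glucocorticoids bind a nuclear receptor that raises a small set of genes in most tissues. Of 18 such genes, 10 were lower and 2 higher, with a median log2 fold change of -0.77, and 9 of the 10 passed a minimum of 1.2-fold. Besides Tsc22d3, the chaperone gene Fkbp5 changed by -1.78. Ddit4, an inhibitor of mTORC1 that also responds to hypoxia, read 70.7 and 65.9 CPM in the isotype libraries and 28.8 and 28.1 CPM in the anti-CTLA-4 libraries, a change of -1.26 ± 0.068 (adjusted p = 1.54e-15). Mt1, a metallothionein, read 134 and 130.2 CPM in the isotype libraries and 71.5 and 69.2 CPM in the anti-CTLA-4 libraries, a change of -0.91 ± 0.05 (adjusted p = 2.67e-15). In muMT hosts 13 of the 18 were lower and 1 higher (over all genes there, 22.1% were higher and 20.4% lower).

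Transcription factors of macrophages divided, with 13 of 33 higher and 7 lower. Hif1a moved from 594 and 648 to 912 and 979 CPM (0.61 ± 0.052, adjusted p = 1.83e-10) and Mitf, which drives lysosomal and melanocyte genes, from 91.8 and 90.2 to 146 and 139.9 CPM (0.65). Ahr, the aryl hydrocarbon receptor, moved from 139 and 144 to 80.6 and 72.5 CPM (-0.89 ± 0.055, adjusted p = 5e-14), and Pparg, a lipid-activated nuclear receptor, from 15.9 and 15.7 to 6.61 and 6.65 CPM (-1.25). Of 31 cytokine receptors, 9 were higher and 11 lower. Il7r, the interleukin 7 receptor chain, which T cells also carry, read 50.9 and 56.8 CPM in the isotype libraries and 138 and 138 CPM in the anti-CTLA-4 libraries, a change of 1.36 ± 0.062 (adjusted p = 2.28e-17). Of 11 T cell markers tested 5 were called higher (3 with DESeq2 or without either anti-CTLA-4 library), and their part in Il7r was not tested. Il2rg, the common gamma chain, moved from 83.2 and 91.1 to 145 and 141 CPM (0.71). The decoy receptor Il1r2 fell, from 178 and 174 to 122 and 117 CPM (-0.56), and Csf2rb, the beta chain of the GM-CSF receptor, from 739.9 and 746 to 586 and 575 CPM (-0.36). Of 19 Notch pathway genes, 4 were higher and 5 lower (3 lower without WT isotype library 1). While Jag1 rose, the target Hes1 moved from 20.7 and 22.3 to 9.33 and 10.5 CPM (-1.11 ± 0.096, adjusted p = 7.43e-11) and Dtx4 from 108 and 109 to 72.8 and 70.1 CPM (-0.60), and the DNA-binding factor Rbpj from 249.8 and 259 to 335 and 338 CPM (0.40).

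Secreted signals changed most among chemokines, small proteins that guide leukocytes. Of 27 chemokine ligands, 17 were higher and 5 lower, with a median of 0.59, and 8 and 3 of them changed at least 2-fold. The neutrophil attractants Cxcl1 and Cxcl2 changed by 1.94 and 1.28, and the eosinophil and monocyte attractants Ccl24 and Ccl8 by -2.38 and -1.31. The stretches upstream of Cxcl1 and Cxcl2 are shown because both genes rose and both hold the NF-kB motif GGGNNTTTCC (searched on both strands, matches in capitals) within 250 bases before the start.
Cxcl1: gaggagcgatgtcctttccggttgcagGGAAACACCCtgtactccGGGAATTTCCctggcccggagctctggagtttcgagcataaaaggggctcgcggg
Cxcl2: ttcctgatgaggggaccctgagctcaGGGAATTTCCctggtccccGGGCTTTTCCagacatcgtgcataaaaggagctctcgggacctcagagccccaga
These are the + strand of chr5:90891129-90891228 and chr5:90903776-90903875 in RefSeq's GRCm38.p6 annotation, an older assembly than the mm39 of the counts. Each stretch holds the motif in 2 places. Of 34 genes in the NF-kB and chemokine lists with a promoter in the table, 9 (26.5%) held it, against 1.93% of 11807 tested genes and 1.41% of all 32851 promoters of that length. A match is a description of the sequence and not a measured binding site.

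Receptors for attractants were split, with 7 of 19 higher and 4 lower (2 lower without WT anti-CTLA-4 library 1). Fpr1 rose beside Fpr2, from 2.44 and 2.74 to 10.7 and 10.7 CPM (2.05 ± 0.16, adjusted p = 4.62e-12), and Ccrl2, a receptor that binds chemerin without signalling, moved from 766 and 756 to 1048 and 1028 CPM (0.45). Cxcr4, the receptor of CXCL12, fell, from 497 and 468 to 316 and 307 CPM (-0.63 ± 0.044, adjusted p = 5.84e-13). Of 29 growth and angiogenic factors, 6 were higher and 8 lower (5 lower without WT anti-CTLA-4 library 1). Inhba, an activin subunit, changed by 1.68, and Vegfa, vascular endothelial growth factor, moved from 691 and 639 to 932 and 941 CPM (0.49 ± 0.043, adjusted p = 8.08e-11). Nrp2 moved from 134 and 127 to 240.5 and 234 CPM (0.86), and Tgfb3 from 57.5 and 56.5 to 33.8 and 33.2 CPM (-0.77).

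Prostaglandin and leukotriene genes held opposite pairs. Of 24 tested, 10 were higher and 7 lower. Next to Ptgs2 and Ptgs1, the leukotriene genes also parted. Alox5ap, which presents arachidonic acid to 5-lipoxygenase, moved from 59.6 and 61.4 to 97.6 and 97.3 CPM (0.69 ± 0.055, adjusted p = 1.24e-11), and Ltc4s, the synthase of leukotriene C4, from 14.5 and 13 to 3.44 and 4.63 CPM (-1.76 ± 0.13, adjusted p = 3.69e-12). Ltc4s is also a mast cell gene. All 6 mast cell and basophil markers tested were called higher (5 with DESeq2, and 4 without WT anti-CTLA-4 library 2 or either WT isotype library), and the part of these cells in Ltc4s was not tested.

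Ligands that act on T cells rose more often than they fell. Of 21 costimulatory and coinhibitory ligands, 9 were higher and 4 lower (median 0.15). Cd274, the checkpoint ligand PD-L1, read 452 and 457 CPM in the isotype libraries and 761 and 760 CPM in the anti-CTLA-4 libraries, a change of 0.74 ± 0.042 (adjusted p = 4.01e-15). Cd40, the receptor through which helper T cells activate myeloid cells, moved from 68.1 and 61.1 to 114 and 116 CPM (0.84 ± 0.057, adjusted p = 3.54e-13). Tnfsf9, the 4-1BB ligand, moved from 16.3 and 15.8 to 36.2 and 39.4 CPM (1.24 ± 0.086, adjusted p = 5.76e-13). Vsir, the inhibitory molecule VISTA, was the one of these 4 that fell, from 559.6 and 545 to 369 and 371 CPM (-0.58 ± 0.042, adjusted p = 1.4e-12). Among 27 inhibitory receptors and Siglecs, 8 were higher and 9 lower. Clec12a, an inhibitory receptor for uric acid crystals, moved from 91.4 and 98.3 to 193 and 196 CPM (1.04 ± 0.053, adjusted p = 5.07e-16). Lilrb4a and Lilrb4b, inhibitory receptors whose sequences are much alike, moved from 835 and 859 to 1229 and 1254 CPM (0.55) and from 477 and 515 to 799 and 783 CPM (0.67).

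Genes of uptake and degradation leaned lower. Of 28 efferocytosis and scavenger receptors, 12 were lower and 7 higher (median -0.20), with 4 higher without WT anti-CTLA-4 library 1. Cd163, the haemoglobin scavenger receptor, read 6.75 and 6.24 CPM in the isotype libraries and 0.561 and 0.184 CPM in the anti-CTLA-4 libraries, a change of -4.14 ± 0.26 (adjusted p = 3.78e-14). Scarb1, a receptor for high-density lipoprotein, moved from 54.7 and 57.2 to 27.9 and 30.1 CPM (-0.95 ± 0.065, adjusted p = 5.3e-13). The oxidised lipid receptors went up, Cd36 from 97.6 and 106 to 172 and 179 CPM (0.79) and Olr1 from 33.0 and 34.3 to 67.2 and 69.0 CPM (1.02). Of 55 lysosomal genes, 26 were lower and 5 higher (median -0.13). Lgmn, the protease legumain, read 3223 and 3048 CPM in the isotype libraries and 2214 and 2212 CPM in the anti-CTLA-4 libraries, a change of -0.50 ± 0.039 (adjusted p = 7.81e-12). Man2b1, lysosomal alpha-mannosidase, moved from 1003 and 974 to 689 and 695 CPM (-0.52), and the membrane protein gene Cd63 from 271 and 258 to 168 and 165 CPM (-0.67). Ctsc, the cathepsin that activates granule proteases, rose, from 2333 and 2393 to 3008 and 3060 CPM (0.36 ± 0.04, adjusted p = 1.66e-08). The lysosomal changes were small, and 5 of the 26 passed a minimum of 1.2-fold.

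Complement genes moved both ways, with 9 of 20 higher and 6 lower (3 lower without WT isotype library 1 or WT anti-CTLA-4 library 1). C3, the central component, read 856 and 832 CPM in the isotype libraries and 1651 and 1606 CPM in the anti-CTLA-4 libraries, a change of 0.95 ± 0.042 (adjusted p = 1.53e-17). Cfp, properdin, moved from 167 and 152 to 307 and 295 CPM (0.92 ± 0.048, adjusted p = 9.43e-16), C1s1 from 7.21 and 7.40 to 16.3 and 15.7 CPM (1.13) and C6 from 3.68 and 3.37 to 0.881 and 0.808 CPM (-2.06). Autophagy genes changed little, with 5 of 26 higher and 2 lower (3 higher without WT isotype library 2 or WT anti-CTLA-4 library 2). Sqstm1, the autophagy receptor p62, moved from 602 and 572 to 830.2 and 827 CPM (0.50 ± 0.041, adjusted p = 3.2e-11), and Optn, optineurin, from 13.8 and 12.7 to 21.3 and 23.0 CPM (0.74). Of 39 actin and engulfment genes, 7 were higher and 8 lower (median -0.00070), shares near those of all genes. Without WT anti-CTLA-4 library 1 these were 3 and 5, and without library 2 of that group 4 and 5. Of 9 NADPH oxidase genes, 2 were higher and 4 lower. Ncf1, a cytosolic subunit, was one of those called higher, from 264 and 257 to 359 and 354 CPM (0.45 ± 0.043, adjusted p = 8.58e-10).

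Adhesion and matrix genes changed in both directions. Of 25 integrins and adhesion molecules, 11 were higher and 7 lower. Itgax, the CD11c subunit, read 1374 and 1370 CPM in the isotype libraries and 830 and 807 CPM in the anti-CTLA-4 libraries, a change of -0.74 ± 0.04 (adjusted p = 1.29e-15). Itga9 moved from 415 and 406 to 251 and 237 CPM (-0.75). Of 29 matrix proteases and inhibitors, 13 were lower and 8 higher (median -0.14). Adam8, a membrane metalloprotease of leukocytes, rose, from 614 and 589 to 955 and 947 CPM (0.66 ± 0.042, adjusted p = 7.06e-14), in contrast to Mmp9, Mmp13 and Adamdec1 (-2.69). Of 10 fibroblast and mural markers 6 were lower and 1 higher, with Col3a1 from 124 and 121 to 66.4 and 64.4 CPM (-0.91), Dcn from 13.5 and 14.9 to 18.1 and 19.1 CPM (0.39) and Rgs5 from 15.7 and 13.2 to 13.9 and 14.99 CPM (adjusted p = 0.985). Dcn and Rgs5 were picked with their values known, and the part of stromal RNA in the matrix genes was not tested.

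Calls among glycolysis genes were all on the higher side and those among cycle and fatty acid oxidation genes all on the lower side. Glycolysis breaks glucose to pyruvate in the cytosol, and the tricarboxylic acid cycle oxidises it in mitochondria. Of 22 glycolysis genes, 13 were higher and 0 lower (median 0.20), and 6 passed a minimum of 1.2-fold. The hexokinase genes Hk2 and Hk3 moved from 371 and 368 to 527 and 517 CPM (0.50 ± 0.042, adjusted p = 4.33e-11) and from 281 and 273 to 492 and 493 CPM (0.83 ± 0.043, adjusted p = 5.53e-16). Pfkp, platelet phosphofructokinase, moved from 266 and 258 to 369 and 373 CPM (0.50), and Slc2a6, a hexose transporter of lysosomes, from 24 and 21.0 to 45.9 and 44.0 CPM (1.00). Of 19 hypoxia-inducible genes outside glycolysis, 4 were higher and 5 lower, and the lower count was 2 or 3 without any 1 of the 4 WT libraries. Kdm3a moved from 104 and 105 to 136 and 129 CPM (0.34).

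Of 25 genes of the tricarboxylic acid cycle, 19 were lower and 0 higher (median -0.23). Fh1, fumarate hydratase, read 45.6 and 44.5 CPM in the isotype libraries and 28.8 and 30.5 CPM in the anti-CTLA-4 libraries, a change of -0.60 ± 0.067 (adjusted p = 1.4e-08). Idh2 and Mdh2, the mitochondrial isocitrate and malate dehydrogenases, moved from 84.2 and 83.2 to 55.6 and 59.7 CPM (-0.54 ± 0.056, adjusted p = 4.98e-09) and from 84.7 and 80.0 to 56.1 and 57.3 CPM (-0.54 ± 0.059, adjusted p = 1.2e-08). Idh3g moved from 58.7 and 54.8 to 41.0 and 39.4 CPM (-0.50). Without WT anti-CTLA-4 library 1, 13 of the 25 were called lower, and 6 passed a minimum of 1.2-fold. Of 18 fatty acid oxidation genes 10 were lower and 0 higher (median -0.21, lowest -0.38), and 0 passed the test for a minimum of 1.2-fold. Acadm, medium-chain acyl-CoA dehydrogenase, moved from 49.1 and 49.2 to 37.8 and 39.9 CPM (-0.34 ± 0.064, adjusted p = 0.0001), Etfb from 30.3 and 30.9 to 23.9 and 23.6 CPM (-0.36) and Acaa2 from 34.8 and 33.3 to 26.9 and 26.6 CPM (-0.35).

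Calls among genes of fatty acid and nucleotide synthesis were all on the lower side. Of 17 fatty acid synthesis genes, 9 were lower and 0 higher (median -0.30). Fasn, fatty acid synthase, read 96.2 and 90.5 CPM in the isotype libraries and 57.8 and 56.2 CPM in the anti-CTLA-4 libraries, a change of -0.71 ± 0.059 (adjusted p = 2.74e-11). The desaturases Scd2 and Fads1 moved from 185 and 185 to 117 and 107 CPM (-0.73) and from 89.9 and 89.7 to 59.5 and 58.9 CPM (-0.60), and Lpin1, a phosphatidate phosphatase, from 49.4 and 49.2 to 26.8 and 26.5 CPM (-0.89). Of 25 nucleotide synthesis genes, 17 were lower and 0 higher (median -0.33), and 8 passed a minimum of 1.2-fold. Rrm1 and Rrm2, the subunits of ribonucleotide reductase, moved from 85.4 and 88.2 to 58.5 and 62.5 CPM (-0.52 ± 0.058, adjusted p = 1.86e-08) and from 32.1 and 34.7 to 19.3 and 23.1 CPM (-0.65 ± 0.085, adjusted p = 3.05e-07). Shmt2, the mitochondrial serine hydroxymethyltransferase, moved from 27.8 and 30.8 to 17.7 and 17.6 CPM (-0.73). Tk1, thymidine kinase, moved from 21.9 and 19.9 to 11.3 and 13.4 CPM (-0.75), but with reads counted on both strands its change was -0.05 (adjusted p = 0.687). Of the 7 pentose phosphate genes 2 rose and 2 fell (1 fell with DESeq2, or without WT isotype library 1 or either WT anti-CTLA-4 library), the oxidative Pgd (0.32) and G6pdx (0.32) against Pgls (-0.23) and the transketolase gene Tkt (-0.40 ± 0.044, adjusted p = 1.8e-08).

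**Figure D3:**
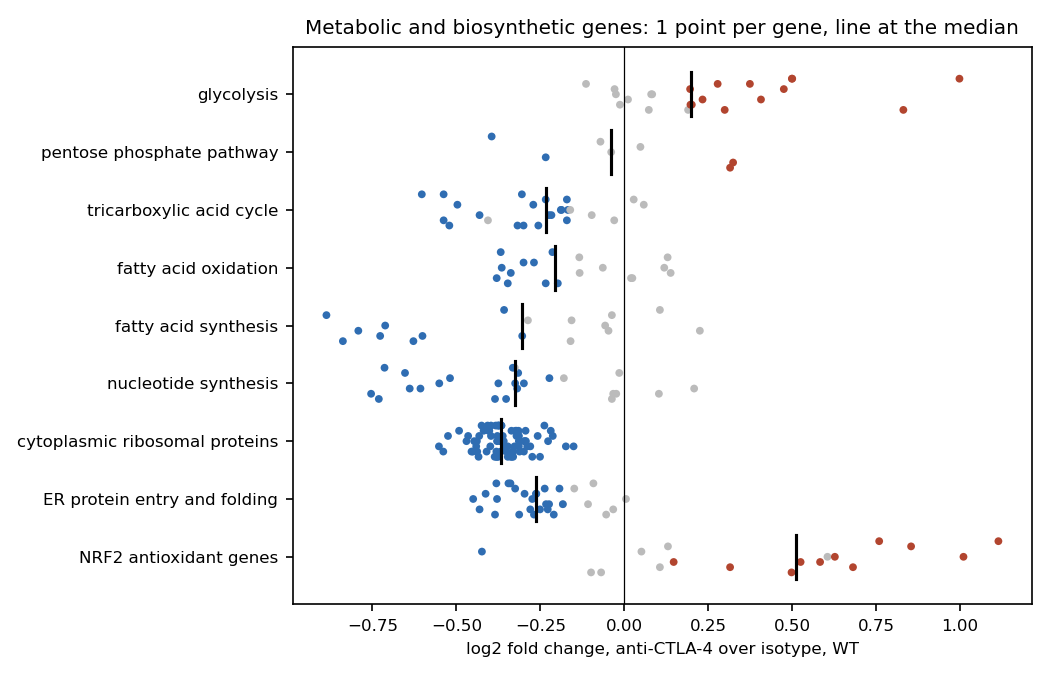
Log2 fold change with anti-CTLA-4 in WT phagocytes (horizontal axis) for every tested gene of 9 metabolic and biosynthetic lists, 1 point per gene (red, called higher; blue, called lower; grey, not called) with a black line at the list's median. The medians of the glycolysis (0.20) and NRF2 (0.51) lists lie to the right of 0 and those of the cycle, lipid, nucleotide, ribosomal protein and endoplasmic reticulum lists to the left, with single genes of most lists on the other side, the ribosomal proteins in a narrow band between -0.55 and -0.15.

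Most genes of the antioxidant list rose. NRF2 is the transcription factor that raises glutathione and thioredoxin enzymes when its partner KEAP1 is modified by electrophiles. Of 18 such genes, 11 were higher and 1 lower, with a median of 0.51, and 9 passed a minimum of 1.2-fold. Slc7a11, the cystine transporter, read 347 and 371 CPM in the isotype libraries and 767 and 788 CPM in the anti-CTLA-4 libraries, a change of 1.11 ± 0.046 (adjusted p = 2.58e-18). Prdx1, a peroxiredoxin, read 435 and 432 CPM in the isotype libraries and 791 and 776 CPM in the anti-CTLA-4 libraries, a change of 0.85 ± 0.041 (adjusted p = 1.18e-16). Hmox1, haem oxygenase 1, moved from 299.9 and 287 to 499 and 494 CPM (0.76 ± 0.045, adjusted p = 1.94e-14), and Txnrd1, thioredoxin reductase, from 310.3 and 325 to 497 and 484 CPM (0.63 ± 0.043, adjusted p = 4.91e-13). All 4, which were named for a small p, had both anti-CTLA-4 libraries above both isotype libraries, as did 31.1% of all tested genes. Slc7a11 is also a target of ATF4, the factor of the amino acid stress response. Of 23 genes on the ATF4 list 3 were higher and 8 lower (median -0.04), and the part of either factor in Slc7a11 was not tested. Among the lower ones, Gpt2 moved from 47.3 and 47.9 to 30.8 and 34.0 CPM (-0.55). The stretches before the starts of Slc7a11, with 2 matches to the ATF4 motif TGATGNAA, and Txnrd1, with the NRF2 motif TGACNNNGCA, are shown because the genes share a direction and differ in motif (both strands searched, matches in capitals).
Slc7a11: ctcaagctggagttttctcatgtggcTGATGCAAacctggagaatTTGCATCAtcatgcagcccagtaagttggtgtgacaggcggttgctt
Txnrd1: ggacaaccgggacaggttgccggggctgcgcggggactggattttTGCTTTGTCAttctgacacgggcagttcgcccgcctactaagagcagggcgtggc
They are chr3:50443614-50443705 on the - strand and chr10:82859068-82859167 on the + strand of GRCm38.p6. The ATF4 motif was found before 6 of 24 genes (25.0%) of the ATF4 and tRNA synthetase lists, 2 of 3 higher and 0 of 9 lower ones, against 2.62% of tested genes and 3.45% of all promoters of that length, and the NRF2 motif before 1 of 15 NRF2 genes (6.67%), against 2.75% and 2.48%. For the glucocorticoid list the motif GNACANNNTGTNC was held by 3 of 15 genes (20%), against 0.322% of tested genes and 0.387% of all promoters, and by 1 of the 9 lower members with a promoter in the table and by 1 of the 2 higher ones. The stretches of those called members, Mt1 (lower) and Sgk1 (higher, 0.22), are shown with the motif in capitals.
Mt1: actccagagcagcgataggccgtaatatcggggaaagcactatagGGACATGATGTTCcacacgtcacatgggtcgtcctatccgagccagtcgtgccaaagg
Sgk1: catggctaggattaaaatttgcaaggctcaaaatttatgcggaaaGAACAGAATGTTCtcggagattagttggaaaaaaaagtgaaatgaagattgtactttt
They lie at chr8:94178950-94179052 and chr10:21993657-21993759 on the + strand of the same assembly.

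Arginine and nitric oxide genes were led by Nos2 (2.44) and Ass1 (1.76), with 9 of 22 higher and 6 lower. Gch1, which makes the tetrahydrobiopterin cofactor of nitric oxide synthase, rose beside them, from 30.01 and 28.5 to 51.2 and 52.2 CPM (0.82 ± 0.067, adjusted p = 2.14e-11), and Arg2, the mitochondrial arginase, moved from 36.4 and 38.5 to 69.6 and 73.7 CPM (0.94 ± 0.062, adjusted p = 2.42e-13). Iron and haem genes were even, with 9 of 26 higher and 8 lower (5 lower without WT anti-CTLA-4 library 2). Slc48a1, a haem transporter, moved from 53.5 and 49.4 to 85.5 and 86.4 CPM (0.74), and Hfe from 113 and 118 to 70.3 and 70.8 CPM (-0.71). Of 27 purine and nucleoside genes, 9 were higher and 6 lower. Upp1, uridine phosphorylase, read 5.02 and 6.31 CPM in the isotype libraries and 34.1 and 33.5 CPM in the anti-CTLA-4 libraries, a change of 2.58 ± 0.11 (adjusted p = 7e-18). The adenosine receptor gene Adora2a moved from 13.7 and 11.8 to 30.2 and 30.1 CPM (1.24 ± 0.091, adjusted p = 2.16e-12), and Enpp1, which hydrolyses ATP and cyclic GMP-AMP outside the cell, from 38.6 and 39.1 to 19.7 and 19.7 CPM (-0.98). Of 15 sterol efflux and lipoprotein genes, 4 were higher and 6 lower (3 lower without WT anti-CTLA-4 library 2). Abca1, the cholesterol exporter, moved from 1457 and 1501 to 1910 and 1893 CPM (0.36 ± 0.04, adjusted p = 1.17e-08), and its lipid acceptor gene Apoe from 13220 and 11710 to 9539 and 9679 CPM (-0.38 ± 0.045, adjusted p = 7.82e-08), with Pltp from 84.8 and 81.4 to 64.4 and 59.4 CPM (-0.42). Genes of lipid-associated macrophages parted, 7 of 21 higher and 9 lower.

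Cytoplasmic ribosomal protein genes fell by small and uniform amounts. All 75 cytoplasmic ribosomal protein genes tested were called lower (median -0.37, from -0.55 to -0.15), and 33 of them passed a minimum of 1.2-fold. Rpl5 read 537 and 506 CPM in the isotype libraries and 382 and 386 CPM in the anti-CTLA-4 libraries, a change of -0.44 ± 0.043 (adjusted p = 1.06e-09). Rps9 moved from 794 and 738 to 556 and 579.6 CPM (-0.43) and Rpl13a from 584 and 510.4 to 387 and 391 CPM (-0.49). Both isotype libraries were above both anti-CTLA-4 libraries for all 75 genes, against 33.2% of all tested genes. Many ribosomal protein genes have processed pseudogenes, and reads that map to several places, 5.68% and 4.96% in isotype and 4.29% and 4.38% in anti-CTLA-4 libraries, were not counted, and the part of this was not tested. Mitochondrial ribosomal proteins changed little, with 1 of 77 higher and 8 lower (median -0.08). The lower count was 4 with DESeq2, 1 without WT isotype library 1, and 4 and 3 without anti-CTLA-4 library 1 and 2 of WT.

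Most genes of protein entry into the endoplasmic reticulum fell. Of 31 translocation, glycosylation and folding genes, 24 were lower and 0 higher (median -0.26), and 5 passed a minimum of 1.2-fold. Rpn1, an oligosaccharyltransferase subunit, read 220.4 and 218 CPM in the isotype libraries and 161 and 160 CPM in the anti-CTLA-4 libraries, a change of -0.45 ± 0.045 (adjusted p = 1.87e-09). The disulfide isomerases Pdia4 and P4hb moved from 282 and 287 to 212 and 209 CPM (-0.43) and from 812 and 774 to 619 and 635 CPM (-0.34), and Sec61a1, the channel protein, from 246 and 240.5 to 189 and 184 CPM (-0.39). Of 30 ribosome biogenesis genes 11 were lower and 0 higher (median -0.13). The count was 5 with DESeq2, 6 without either WT isotype library, 5 and 4 without WT anti-CTLA-4 library 1 and 2, and 7 without either muMT anti-CTLA-4 library. Dkc1 moved from 22.3 and 24.2 to 17.5 and 19.2 CPM (-0.34 ± 0.085, adjusted p = 0.0024), and Npm1, nucleophosmin, from 346 and 357 to 304 and 312 CPM (-0.19 ± 0.052, adjusted p = 0.00492). Of 20 aminoacyl-tRNA synthetases 9 were lower and 1 higher (5 lower without either WT anti-CTLA-4 library), the exception being the interferon-inducible Wars1, from 52.9 and 54.4 to 68.9 and 67.0 CPM (0.34 ± 0.058, adjusted p = 2.36e-05). Vars1 moved from 90.2 and 80.9 to 69.5 and 64.8 CPM (-0.35). Of 38 proteasome subunits 7 were higher and 0 lower, a higher share near that of all genes. The members of smallest p were the immunoproteasome subunits Psmb9 (0.36 ± 0.055, adjusted p = 4.85e-06), Psmb10 (0.31) and Psmb8 (0.24), and none of the 7 passed a minimum of 1.2-fold.

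Ribosomal protein genes are short, and short genes leaned lower in WT phagocytes as a class. Among 13278 coding genes with a span in the annotation table, the quintile with the shortest spans (median 4.52 kb) held 11.4% higher and 23.9% lower calls with a median log2 fold change of -0.10. The quintile with the longest spans (median 123 kb) held 22.2% higher and 13.4% lower calls with a median of 0.05. The ribosomal protein median of -0.37 lay below that of the shortest quintile. In muMT phagocytes the trend ran the other way, from 30.7% higher and 15.4% lower in the shortest quintile to 16.8% higher and 35.9% lower in the longest. Reads outside genes rose with anti-CTLA-4 in WT, as given above, and went from 20.4% and 20.8% to 18.6% and 18.7% in muMT. The part of gene span and of reads outside genes in the list results was not tested.

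**Figure D4:**
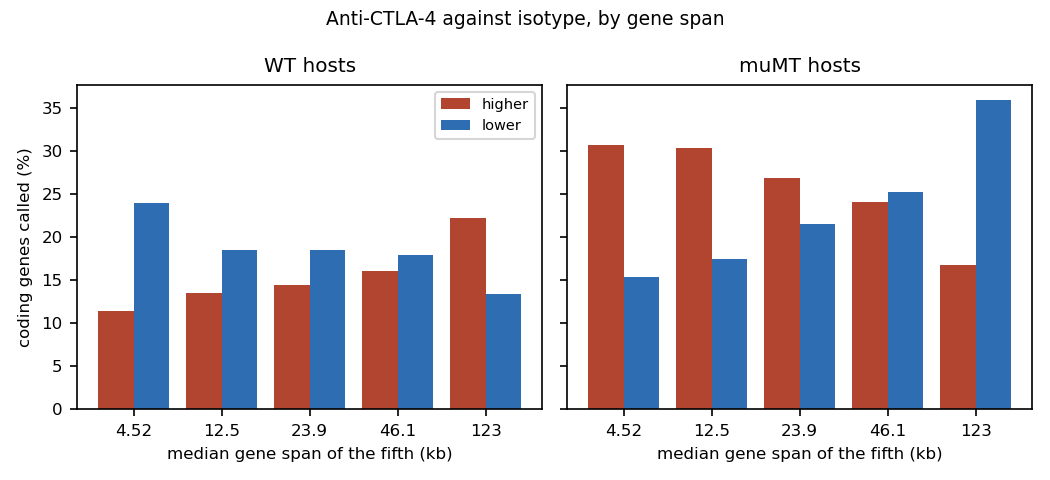
Share of coding genes called higher (red) or lower (blue) with anti-CTLA-4, in % of the genes in each quintile by gene span, against the median span of the quintile (kb), in WT hosts on the left and muMT hosts on the right. In WT the lower share falls from 23.9% to 13.4% and the higher share rises from 11.4% to 22.2% toward long genes; in muMT both run the opposite way.

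Of 25 survival and death genes, which include promoters and inhibitors of cell death, 13 were higher and 3 lower, although 8 were called higher without WT anti-CTLA-4 library 2 and 1 lower without that library or WT isotype library 1. Besides Cflar, the ubiquitin ligase gene Birc2 (cIAP1) moved from 81.3 and 82.4 to 119 and 124 CPM (0.57 ± 0.053, adjusted p = 4.41e-10), and Bcl2l11, the death promoter BIM, from 196 and 204 to 262 and 258 CPM (0.38). Pmaip1, the death promoter NOXA, moved from 181 and 191 to 134 and 142 CPM (-0.43 ± 0.049, adjusted p = 2.51e-08). Of 14 p53 targets 3 were higher and 1 lower (2 lower without WT isotype library 2). Mdm2, the ubiquitin ligase of p53, read 259 and 275 CPM in the isotype libraries and 481 and 483 CPM in the anti-CTLA-4 libraries, a change of 0.85 ± 0.044 (adjusted p = 5.88e-16), and Plk2 moved from 220.2 and 226 to 334 and 338 CPM (0.59). Of 16 long non-coding RNAs 3 were higher and 5 lower (3 lower with DESeq2, and 2 or 3 without any 1 of the WT libraries). Mir155hg, the host transcript of miR-155, read 7.60 and 8.38 CPM in the isotype libraries and 26.9 and 26.4 CPM in the anti-CTLA-4 libraries, a change of 1.74 ± 0.099 (adjusted p = 6.15e-15). The nuclear RNAs Malat1 and Neat1 moved from 10600 and 11010 to 15340 and 15140 CPM (0.50 ± 0.039, adjusted p = 8.57e-12) and from 1549 and 1593 to 1954 and 1889 CPM (0.29).

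Some abundant genes changed by less than 1.5-fold with little spread between libraries. On the higher side these were Lgals3, galectin 3, from 674 and 647 to 965 and 984 CPM (0.56 ± 0.04, adjusted p = 1.44e-12), Samhd1, a nucleotide triphosphohydrolase that restricts viruses, from 392 and 404 to 588 and 579.7 CPM (0.55), Icam1, the ligand of leukocyte beta 2 integrins, from 252 and 238 to 357 and 354 CPM (0.54), and Lhfpl2 from 284 and 279.9 to 411 and 397 CPM (0.52). On the lower side Cd93, a lectin-like receptor of endothelium and monocytes, moved from 428 and 429.6 to 313 and 305 CPM (-0.47). The endocytic genes Hip1, Ap2a2 and Sorl1 moved from 236 and 237 to 160.1 and 157 CPM (-0.58), from 173 and 171 to 118 and 117 CPM (-0.55) and from 241 and 238 to 168 and 163 CPM (-0.54). Rhob, a small GTPase of endosomes, moved from 471 and 439 to 311 and 296 CPM (-0.58 ± 0.045, adjusted p = 7.91e-12), Rnase4 from 169.7 and 172 to 118 and 116 CPM (-0.55), and the laminin receptor and ribosomal protein gene Rpsa from 892 and 828 to 586 and 617 CPM (-0.52). Rn7sk, the small nuclear RNA that holds the elongation factor P-TEFb, moved from 10690 and 9741 to 7312 and 7534 CPM (-0.46). Rn7sk has many pseudogene copies, so its count is uncertain.

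The effect in WT hosts differed from that in muMT hosts for many of these genes. The difference of the log2 fold changes (WT minus muMT) was itself called for 6194 of 16608 genes (37.3%), 17.5% with a higher and 19.8% with a lower value in WT. Of the 2435 genes higher in WT, 811 (33.3%) were also higher in muMT and 492 (20.2%) were lower there. Of the 2634 lower in WT, 821 (31.2%) were also lower in muMT and 817 (31.0%) were higher. Over all tested genes 22.1% were higher and 20.4% lower in muMT, so the 20.2% lay near the share of all genes. All 492 and all 817 genes of opposite direction were called for the difference, which calls in opposite directions nearly ensure. Of the 36 genes named by rank, 29 had a called difference that does not rest on a group without reads. Among them were Mgl2, at -1.14 in WT and 2.65 in muMT, a difference of -3.79 (adjusted p = 2.13e-26), and Mmp9, at -5.40 and -1.75, a difference of -3.65 (adjusted p = 3.35e-12). Tnf changed by 1.29 in WT and -0.64 in muMT, a difference of 1.92 (adjusted p = 3.58e-19). Jag1, Cflar and Pid1 were called higher in WT, with -0.26, -0.06 and -0.12 in muMT, where only Jag1 was called lower. Tsc22d3 (-1.07 and -1.06), Hspa1b, Tnip3, Capg, Bst1 and Smpdl3b had no called difference, which does not show that the effects were equal.

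**Figure D5:**
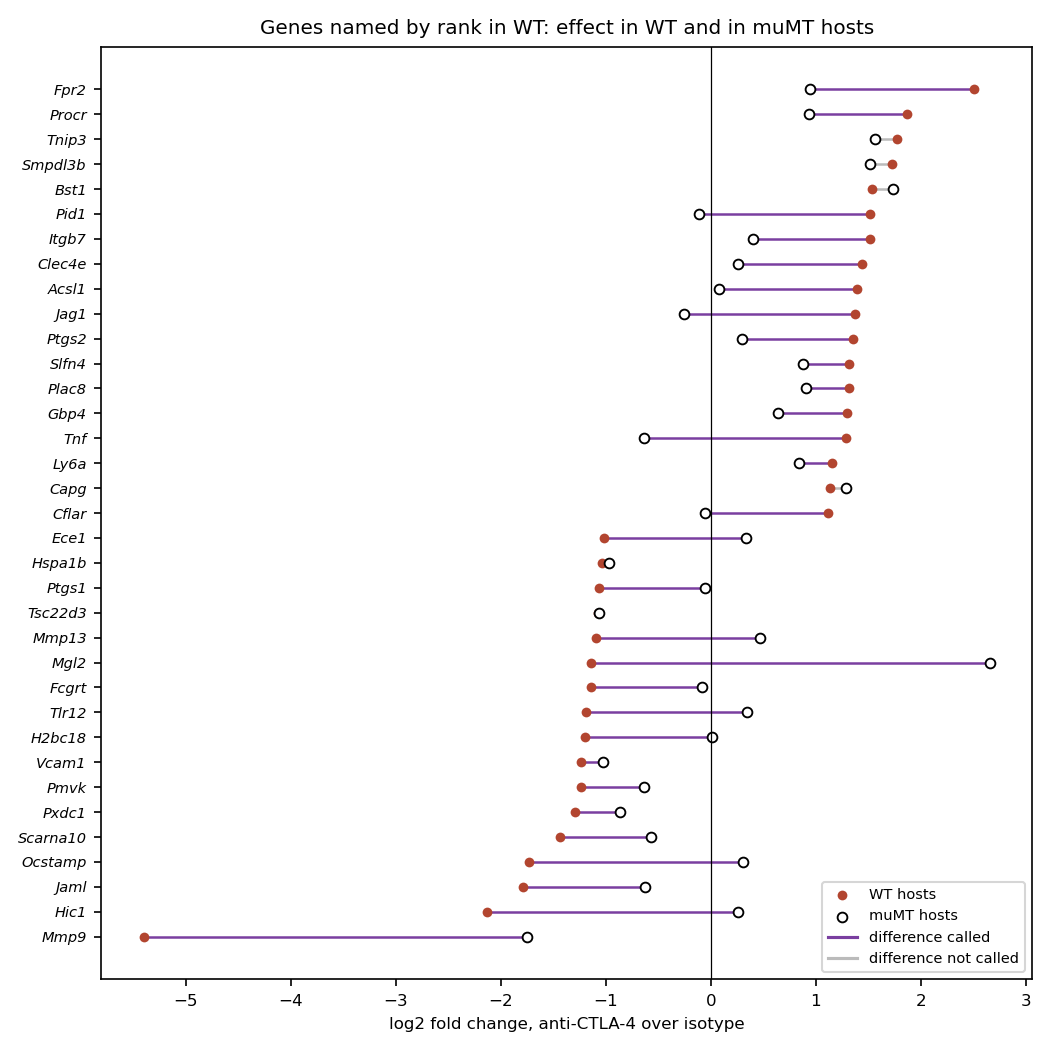
Log2 fold change with anti-CTLA-4 of the genes named by rank in WT hosts (red points) and in muMT hosts (open points), joined by a purple line where the difference was called and a grey one where it was not; Gh is left out because it had no read in a WT group. Mgl2 goes from -1.14 in WT to 2.65 in muMT and Tnf from 1.29 to -0.64, while Tsc22d3 lies at -1.07 and -1.06.

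By list, the difference was called higher in WT for 15 of 19 NF-kB genes and 12 of 15 inflammasome genes, with 0 and 1 lower. In muMT, 2 NF-kB genes were higher and 10 lower (over all tested genes there, 22.1% were higher and 20.4% lower). The difference was called lower in WT for 72 of 75 ribosomal proteins, 21 of 25 tricarboxylic acid cycle genes, 22 of 25 nucleotide synthesis genes, 28 of 31 endoplasmic reticulum genes, 33 of 38 proteasome subunits and 52 of 77 mitochondrial ribosomal proteins. In muMT, 19 cycle genes, 20 nucleotide genes, 25 endoplasmic reticulum genes and 35 proteasome subunits were higher. Of 22 glycolysis genes 13 were higher and 0 lower in WT and 16 higher and 2 lower in muMT, and the difference was called higher for 5 and lower for 8 of them.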

How the data were processed

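The deposited values are raw read counts for each gene, in STAR's gene count format and not normalized, in which a read with several map positions is not counted. Per the submitters' processing notes cutadapt 5.0, STAR 2.7, DESeq2 1.42.1 and the mm39 build were used. The annotation is not given in the sources used here. Per the labels, libraries were stranded total RNA. The reverse-strand column was used, since it held 23.3 to 26.5 times the forward-strand total. The first 4 rows of a file, which name no gene, served only for shares of reads.

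Of 50763 genes listed, 16608 passed filterByExpr by group. TMM factors scaled the libraries, and the model was edgeR 4.0.16 in R 4.3.3 (robust quasi-likelihood, 4 group means over all 8 libraries, 4 residual degrees of freedom). Calls use a Benjamini-Hochberg adjusted p under 0.05, two-sided, with no minimum fold. SE is the log2 fold change over the square root of F. With 2 libraries against 2, label permutation cannot give a small p and was not used. The code was tested on simulated data. The alternatives were DESeq2 1.42.0, other scalings, no filter, both strands, the replicate block, a non-robust fit, the compared libraries alone, a minimum change of 1.2-fold, and leaving out each library.

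The 49 gene lists and 15 marker lists were written from textbook knowledge with earlier results of these data known, as was the choice of the comparison, so their counts are a description. The genes named are ranks 13 to 30 by p in each direction among called genes with at least 2-fold change, at least 5 CPM on average, an approved rather than a predicted symbol, and no overlap between the WT groups. Up to 4 members of smallest p per list, the 12 of smallest p in each direction with under 1.5-fold change and at least 50 CPM, up to 3 markers of the highest summed count per marker list, and up to 2 promoters per motif complete the rule. A few genes that the rule names are not reported here. Gene spans, classes and promoter sequences come from RefSeq's GRCm38.p6 tables, matched by symbol for 95.6% of tested genes. A floor of 3 reads over a group was used where a group had none, and it covers counting error only.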

Additional observations from a re-analysis of the deposited data

Results flagged for a closer look

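Of the 36 genes named by rank for their change in WT hosts, these 29 were set apart because the effect of anti-CTLA-4 differed between WT and muMT hosts by the test of the difference itself (edgeR, adjusted p under 0.05, as for 37.3% of all tested genes). Values are the WT log2 fold change minus that in muMT. For 18 of the 29 the estimated effects had the same sign in both hosts and for 11 they had opposite signs. The effect in muMT was not itself called for Cflar, Pid1 and H2bc18 (opposite sign) or for Acsl1, Ptgs1 and Fcgrt (same sign). Among genes higher in WT the difference was 1.92 for Tnf, 1.63 for Jag1, 1.63 for Pid1, 1.56 for Fpr2, 1.31 for Acsl1, 1.18 for Clec4e, 1.18 for Cflar, 1.11 for Itgb7, 1.06 for Ptgs2, 0.93 for Procr, 0.66 for Gbp4, 0.44 for Slfn4, 0.41 for Plac8 and 0.31 for Ly6a. Thus for all 14 the change was more positive in WT hosts. Among genes lower in WT it was -3.79 for Mgl2, -3.65 for Mmp9, -2.39 for Hic1, -2.03 for Ocstamp, -1.56 for Mmp13, -1.54 for Tlr12, -1.36 for Ece1, -1.21 for H2bc18, -1.16 for Jaml, -1.06 for Fcgrt, -1.01 for Ptgs1, -0.86 for Scarna10, -0.60 for Pmvk, -0.42 for Pxdc1 and -0.21 for Vcam1. For these 15 the change was more negative in WT hosts. The genes were ranked by their change in WT, which is part of the difference, so its size and its shared sign in each set are a description. Gh also differed, but with 0 reads in WT anti-CTLA-4 its fitted difference is not given. Groups of 2 libraries are too small to look for an outlying library.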

How the results depend on the processing

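The counts of genes called in WT kept within 1.5 times their main values under every alternative but 1. When a change beyond 1.2-fold was required, 1096 genes were called higher and 888 lower, 3495 for the difference between hosts and 3302 in muMT. Leaving out 1 library gave 1767 to 2871 genes higher and 1805 to 2923 lower. DESeq2's Wald test gave 2008 and 1939, and edgeR on the WT libraries alone gave 2815 and 2760. Another scaling moved the median of all genes by at most 0.0144 on the log2 scale, and counting both strands by -0.0315. Libraries of the same replicate number did not visibly deviate together: their deviations from group means correlated between -0.042 and 0.017. With 2 libraries per group each deviation is a single difference that includes counting error, so this cannot show whether the numbers mark a pairing. With the replicate block 2315 genes were called higher and 2519 lower. Of the 36 genes named by rank, none changed direction under any of the 17 alternatives. Sign changes occurred among marker genes that were not called. Aldh1l1 read 0.0055 with DESeq2's size factors and 0.0055 with its Wald test, and Cnp -0.0096 with both strands counted. When 1 library was left out, Aldh1l1 ranged from -0.12 to 0.12, Ccr2 from -0.13 to 0.038, Cnp from -0.069 to 0.085, Gzma from -0.11 to 0.15, Gzmb from -0.057 to 0.16, Hba-a1 from -0.016 to 1.16, Hbb-bs from -0.35 to 0.10, Mag from -0.052 to 0.21 and Syt1 from -1.99 to 1.81. With 2 libraries per group, 1 left out leaves a group of 1, whose spread is taken from the others. The cause of these moves was not tested.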

Other observations

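Long non-coding RNA genes called in WT were more often higher than lower, and coding genes more often lower than higher. Of 1560 long non-coding RNA genes tested, 190 were higher with anti-CTLA-4 in WT hosts and 77 lower (12.2% and 4.94%), with a median log2 fold change of 0.17, whereas of 13278 coding genes 15.5% were higher and 18.4% lower (median -0.03). Among 104 transcribed pseudogenes 17 were higher and 1 lower (median 0.26). Of 121 small nucleolar RNA genes 5 were higher and 12 lower (median 0.04). Gene classes come from the GRCm38.p6 table by symbol, the difference between classes was not tested, and reads outside annotated genes were also a larger share of the anti-CTLA-4 libraries, at 33.3% and 33.0% against 28.4% and 29.5%.

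Markers of cell types other than phagocytes moved in both directions in WT. Of 10 NK cell markers 4 were higher and 1 lower, with Klrk1 at 26.3 and 26.5 CPM in the isotype libraries and 41.2 and 43.5 CPM in the anti-CTLA-4 libraries (0.68 ± 0.093, adjusted p = 1.62e-06). The lower marker, Klrb1c, had the smallest p of that list and moved from 9.72 and 10.1 to 2.76 and 3.09 CPM (-1.76 ± 0.16, adjusted p = 1.87e-10). Gzma and Gzmb were not called (adjusted p = 0.91 and 0.792). Of 8 dendritic cell markers 3 were higher and 2 lower, among them Clec9a, a receptor of cross-presenting dendritic cells, from 3.96 and 4.53 to 8.73 and 8.93 CPM (1.06 ± 0.15, adjusted p = 1.99e-06), and Kmo from 8.80 and 7.58 to 3.48 and 2.98 CPM (-1.34 ± 0.17, adjusted p = 1.07e-07). Ccr7, the receptor that guides dendritic cells to lymph nodes, moved from 15.1 and 15.5 to 21.8 and 21.2 CPM (0.49). Of 10 endothelial markers, Flt1 and Vwf moved from 56.0 and 61.3 to 85.4 and 82.7 CPM (0.52) and from 33.8 and 32.8 to 57.0 and 52.0 CPM (0.71), and Pecam1, which macrophages also express, from 115 and 119 to 91.7 and 90.7 CPM (-0.36). Of 9 oligodendrocyte markers 2 were higher, Mbp among them (0.43), and 4 lower, among them Sox10 (-1.04), Olig2 (-1.15) and Olig1 (-1.06). Of 6 astrocyte markers 1 was higher, and of 3 neuron markers 1 was lower, Map2 (-0.89). The erythroid markers Hba-a1 and Hbb-bs had edgeR adjusted p of 0.585 and 0.788.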
